A study of Mus musculus with 4 samples.

Results

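Fibroblast growth factor (FGF) signalling was examined through 36 genes, which were chosen by gene family: the secreted FGF ligands, the intracellular FGF homologous factors, the FGF receptors, a carrier protein and the genes by which the pathway limits or relays its own signal. All 36 were among the 19938 genes that the arrays represent by at least 1 transcript cluster (a probe set that covers a transcript) paired with that gene alone. For each gene the cluster with the highest mean log2 signal over the 4 arrays was read. Each of 4 sorted populations was hybridized to 1 array. Cultured CORIN+ cells (CORIN+LMX1A::GFP+) and cultured CORIN- cells (CORIN-LMX1A::GFP+) were sorted on day 9 from 129SVEV mouse ESCs with GFP knocked into the Lmx1a locus, after serum-free floating culture (SFEBq). FGF8b and SHH protein were added to this culture in its first days, so both cultured populations had met an added FGF ligand. After that period and before the sort, BDNF and ascorbic acid were among the further additions. CORIN+ and CORIN- cells were sorted from the ventral midbrain (VM) of C57BL/6N fetuses at E11.5. The gate in culture used CORIN and GFP together, whereas the gate in the fetus used CORIN alone, and how many embryos were pooled is not given in the sources used here. Culture, strain and gate differ together between the cultured and fetal cells and cannot be told apart.

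FGF ligands are secreted proteins that bind receptor tyrosine kinases together with heparan sulfate, and the receptors signal through RAS and the MAP kinases ERK1 and ERK2. The pathway switches on its own inhibitors, among them the Sprouty and Spred proteins, the ERK phosphatase DUSP6 and the membrane protein IL17RD (also called SEF), and the ETS transcription factors ETV1, ETV4 and ETV5, so transcripts of these genes are widely used as a readout of FGF signalling. In the embryonic brain, the isthmus at the border of midbrain and hindbrain secretes FGF8 and its relatives, which pattern the midbrain and take part in specifying dopaminergic neurons.

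The values below are log2 signals, a log2 fold is CORIN+ minus CORIN- or culture minus fetus, and a gene was called higher or lower when it differed at least 2-fold. With 1 array per population no error, interval or p-value can be given for any fold, and the share of all 28856 clusters past the same fold is given in its place. The median log2 signal of an array lay between 7.97 and 8.03, and the spread of log2 folds over all clusters, as a scaled median absolute deviation, was 0.15 between the cultured and 0.16 between the fetal populations. Corin, whose product the sort selects, was at 13.10 in cultured CORIN+ and 11.13 in cultured CORIN- cells, and at 11.43 in fetal CORIN+ and 7.28 in fetal CORIN- cells. Floor plate markers had a higher signal in the CORIN+ array for 9 of 10 genes in culture and 10 of 10 in the fetus. Corin itself is 1 of these 10 genes, and 50.7% and 40.3% of all clusters were higher in the 2 pairs. Other cells were represented too. All 9 pluripotency markers had a lower signal in cultured CORIN+ than in cultured CORIN- cells (median level 6.90 and 8.69), 6 of them at least 2-fold. In the fetus, 9 of 10 macrophage markers (median level 10.74 in CORIN+ and 6.77 in CORIN- cells) and 10 of 10 mesenchyme markers (11.00 and 8.52) were at least 2-fold higher in CORIN+ cells, as were 5 of 7 erythroid markers (median log2 fold 1.36) and 2 of 10 endothelial markers (0.42). In culture the mesenchyme markers went the other way, with 9 of 10 lower in the CORIN+ array, 4 of them at least 2-fold, and a median log2 fold of -0.88. All 10 neuronal markers had a lower signal in the CORIN+ array of both pairs. Of all clusters, 49.2% were lower in the cultured and 59.7% in the fetal pair. Past 2-fold, 0.468% were lower in the cultured pair and 2.67% higher in the fetal pair. The part of the cells behind these markers in the results on FGF genes was not tested. In sorted bulk RNA fewer cells of a type and less RNA per cell cannot be told apart.

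How dim a cluster was could be judged only roughly. The 1023 clusters of olfactory receptor genes (Olfr), which are presumed silent in these cells, had a median log2 signal from 5.50 to 5.54 and a 95th percentile from 6.84 to 6.97. Of the FGF genes, 32 lay above that 95th percentile in all 4 arrays. Fgf7 did so in 2 arrays, and Fgf1, Fgf16 and Fgf21 in none. Levels of different genes were not ranked, because each cluster has its own probes.

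**Figure D1:**
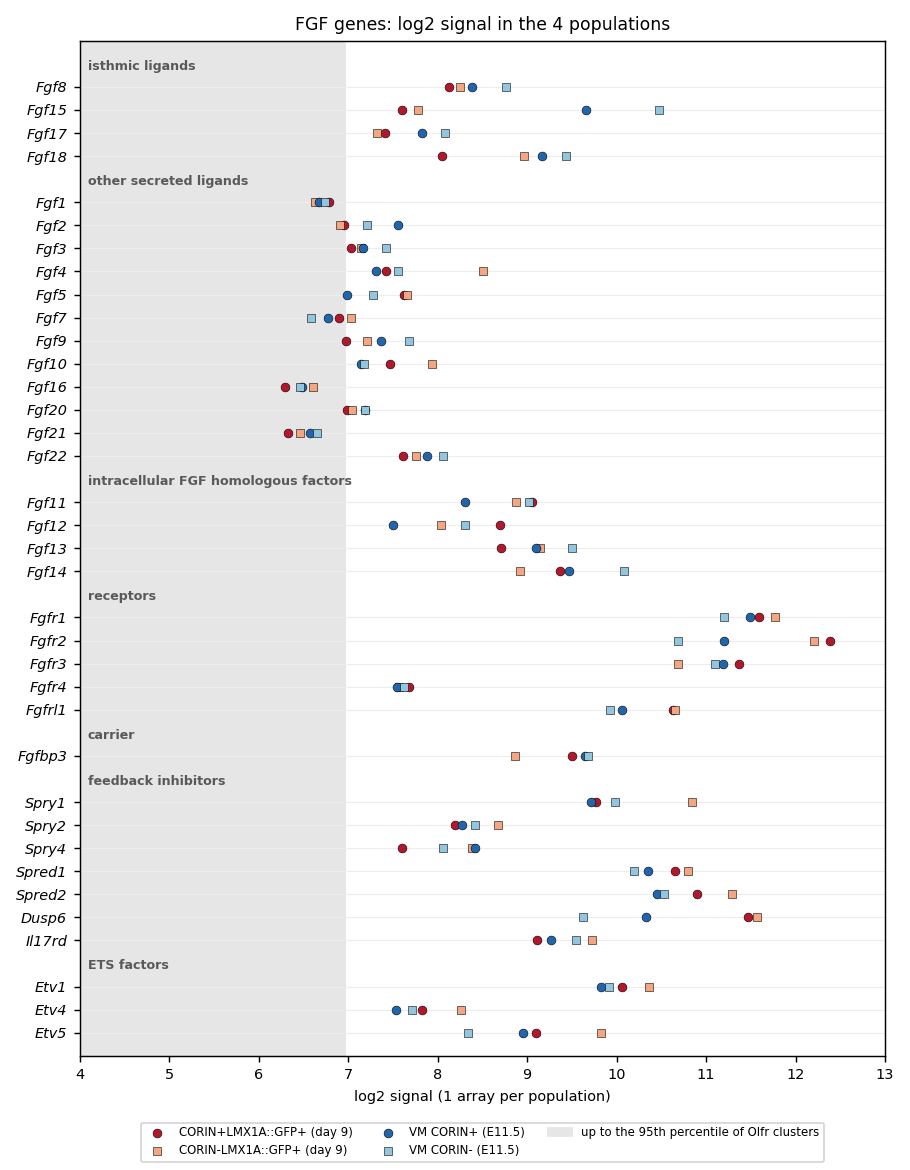
Log2 signal (horizontal axis) of the 36 FGF genes in the 4 populations, 1 array each, grouped by role; circles are CORIN+ and squares CORIN- cells, red and orange for day 9 culture and dark and light blue for E11.5 VM, and the grey band ends at the highest 95th percentile of Olfr clusters (6.97). Most secreted ligands outside the isthmic group lie near the band, and the 4 points of Fgf15 fall into a low cultured pair (7.61 and 7.78) and a high fetal pair (9.66 and 10.47).

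Of the 36 genes, none was at least 2-fold higher and 2 (5.56%) were at least 2-fold lower in cultured CORIN+ than in cultured CORIN- cells, against 0.353% and 0.468% of all clusters. These were Fgf4 and the feedback inhibitor Spry1. In the fetal pair none of the 36 passed 2-fold in either direction, against 2.67% of all clusters higher and 0.672% lower. At 1.5-fold, 3 genes were higher and 6 lower in the cultured pair (1.34% and 1.98% of all clusters), and 2 were higher and 4 lower in the fetal pair (4.97% and 2.59%). Counted over the 19938 genes with 1 cluster each, the shares past 2-fold were 0.376% higher and 0.522% lower in the cultured pair and 3.16% higher and 0.456% lower in the fetal pair. Fgf12 and Etv5 passed 1.5-fold in opposite directions in the 2 pairs, as did 0.437% of all clusters. Etv5 fell just short of it in the fetal pair after quantile normalization (log2 fold 0.58), and its second cluster was under 1.5-fold in both pairs (-0.51 and 0.53).

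**Figure D2:**
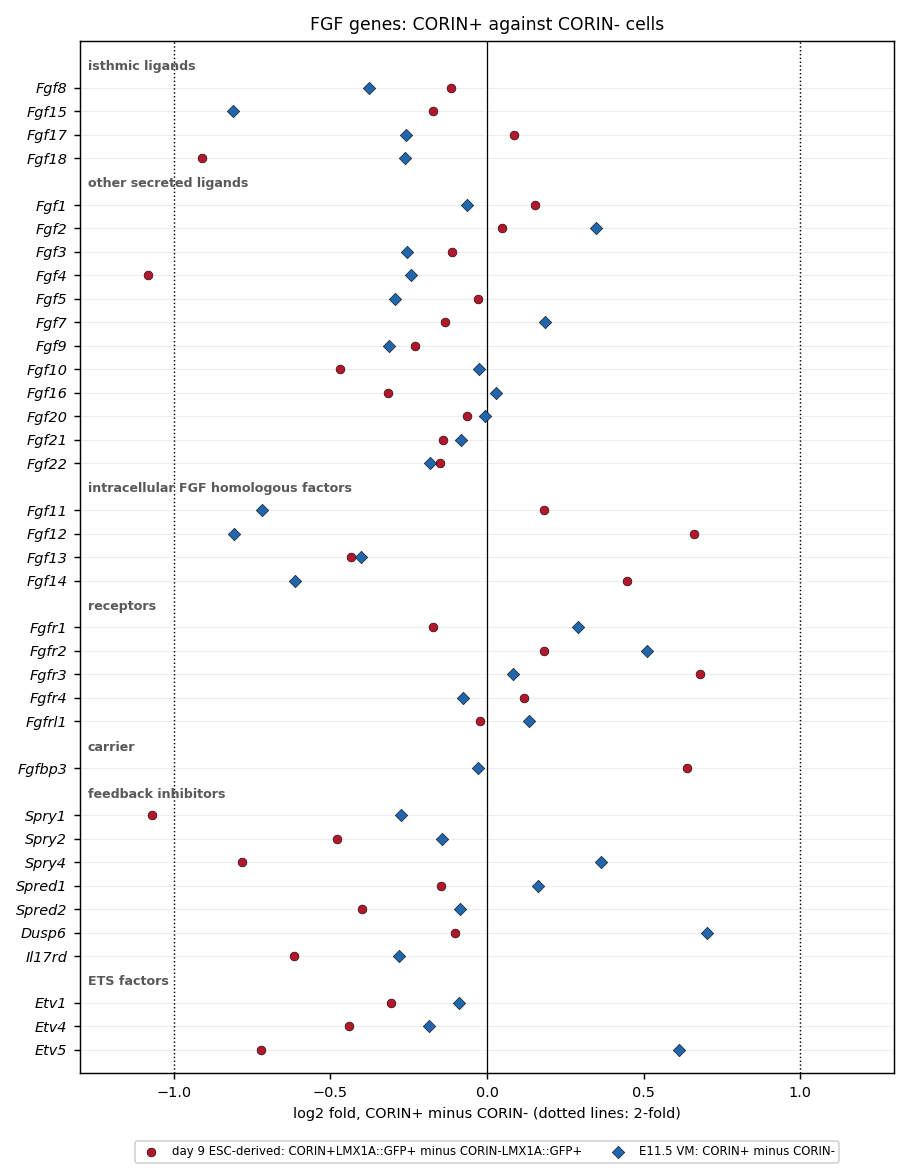
Log2 fold of the 36 FGF genes, CORIN+ minus CORIN-, in day 9 cultured cells (red circles) and E11.5 VM (blue diamonds), 1 array per population, with dotted lines at 2-fold. The feedback inhibitors and ETS factors all lie left of 0 in the cultured pair, and Fgf4 and Spry1 alone reach the dotted line.

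The isthmic ligands Fgf8, Fgf15, Fgf17 and Fgf18 all had a lower signal in culture than in the fetus, in CORIN+ as in CORIN- cells. Their median log2 folds were -0.77 and -0.64, and 47% and 53.6% of all clusters were lower. Fgf15 alone passed 2-fold in both. In CORIN+ cells the folds of Fgf8 (-0.25) and Fgf17 (-0.42) were surpassed by 15.9% and 9.67% of all clusters, and in CORIN- cells by 7.82% and 4.96%. Between CORIN+ and CORIN- cells the median log2 fold of these ligands was -0.14 in culture and -0.32 in the fetus. Fgf15, the mouse counterpart of human FGF19 and a ligand of the embryonic brain as well as a gut hormone, was at 7.61 in cultured CORIN+, 7.78 in cultured CORIN-, 9.66 in fetal CORIN+ and 10.47 in fetal CORIN- cells. Both fetal arrays were thus far above both cultured arrays. The log2 fold of culture over fetus was -2.06 in CORIN+ cells (4.16-fold lower) and -2.70 in CORIN- cells (6.48-fold lower), which 0.880% and 0.236% of all clusters surpassed in the same direction. Between the fetal populations, Fgf15 had a log2 fold of -0.81 (1.76-fold lower in CORIN+ cells), and in culture the fold was -0.17.
Fgf18, a close relative of Fgf8, was at 8.05 in cultured CORIN+ and 8.96 in cultured CORIN- cells, a log2 fold of -0.91 (1.88-fold lower). In the fetus it was at 9.17 in CORIN+ and 9.43 in CORIN- cells. The cultured CORIN+ array was therefore the lowest of the 4, and it lay 2.17-fold below fetal CORIN+ cells, while cultured CORIN- cells lay 1.39-fold below fetal CORIN- cells. Fgf8, the ligand of the isthmic organizer that is also added to such cultures as a protein, had its 4 signals close together. It was at 8.13 in cultured CORIN+, 8.24 in cultured CORIN-, 8.38 in fetal CORIN+ and 8.76 in fetal CORIN- cells. Its fetal fold of -0.38 was surpassed by 5.82% of all clusters, and its fold in culture was -0.12. Fgf17, the third gene of the Fgf8 subfamily, was at 7.41, 7.32, 7.83 and 8.09 in the same order of populations, with log2 folds of 0.09 in the cultured and -0.26 in the fetal pair.
Other genes of the isthmus and midbrain did not all follow these ligands. Of 10 patterning genes, 3 were at least 2-fold lower and 2 at least 2-fold higher in cultured than in fetal CORIN+ cells, and 5 lower and 2 higher in CORIN- cells, against 3.86% and 2.7% of all clusters for CORIN+ and 3.53% and 3.94% for CORIN- cells. Lower in culture in both were En2, a homeobox gene of midbrain and anterior hindbrain (log2 fold -4.67 in CORIN+ and -4.09 in CORIN- cells), Cnpy1, a regulator of FGF receptor signalling at the isthmus known from zebrafish (-3.05 and -2.56), and the paired-box gene Pax5 (-1.77 and -3.42). Wnt1, a ligand of the isthmus and of the midline, was higher in culture (1.69 and 3.96), and so was Lmx1b, a LIM homeobox gene of both places (1.36 and 2.16). Otx2, a homeobox gene of forebrain and midbrain, was at 0.13 and 0.02.

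**Figure D3:**
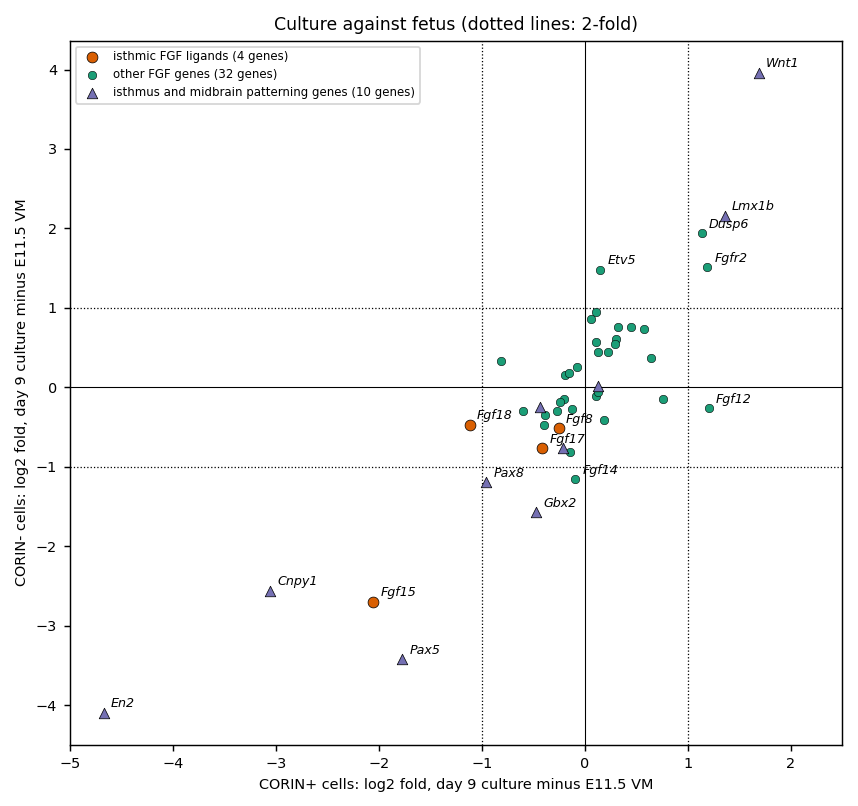
Log2 fold of day 9 culture minus E11.5 VM in CORIN+ cells (horizontal axis) and in CORIN- cells (vertical axis), 1 array per population, for the 4 isthmic ligands (orange), the other 32 FGF genes (green) and 10 isthmus and midbrain patterning genes (purple triangles), with dotted lines at 2-fold. Fgf15 lies at -2.06 and -2.70 near Cnpy1 and Pax5, while Fgfr2 and Dusp6 are the FGF genes past 2-fold on the upper right.

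Among the other 12 secreted ligands only Fgf4 differed at least 2-fold in a comparison. Fgf4, the ligand that ESCs themselves make, was at 7.43 in cultured CORIN+ and 8.51 in cultured CORIN- cells, and at 7.32 and 7.56 in fetal CORIN+ and CORIN- cells. The cultured CORIN- array thus stood apart from the other 3. Its log2 fold in the cultured pair was -1.08 (2.12-fold lower in cultured CORIN+ cells), and it moved with the pluripotency markers, of which Nanog had a log2 fold of -2.60 and Pou5f1 of -1.60 in the same pair. The part of pluripotent cells in this fold was not tested. With 32 added to the linear signals Fgf4 came to -0.96, under 2-fold. Fgf5, a ligand of the early epiblast, did not move with them: it was at 7.62 and 7.65 in culture and at 6.98 and 7.28 in the fetus.
On the reference genome Fgf3, Fgf4 and Fgf15 lie next to each other on chromosome 7, with 0 protein-coding genes between neighbours. Their folds nonetheless differed, since in the cultured pair Fgf3 was at -0.11 and Fgf15 at -0.17 beside the -1.08 of Fgf4, and Fgf15 alone of the 3 was over 2-fold lower in culture.
Fgf10, a ligand of mesenchyme that acts on epithelia, was at 7.47 in cultured CORIN+ and 7.93 in cultured CORIN- cells, a log2 fold of -0.47, and at 7.15 and 7.17 in the fetal CORIN+ and CORIN- cells. The mesenchyme markers had a median log2 fold of -0.88 in the cultured pair, and in the fetal pair their median was 2.28 beside a fold of -0.02 for Fgf10. Their part in the folds of Fgf10 was not tested. Fgf7, which belongs to the same subfamily, had fetal signals of 6.77 and 6.59, close to the Olfr clusters. Fgf2, which leaves cells without a classical signal peptide, was at 6.95 and 6.91 in culture and at 7.55 in fetal CORIN+ and 7.21 in fetal CORIN- cells, a fetal log2 fold of 0.35. Fgf9, a ligand of neurons and epithelia, was at 6.98 and 7.21 in culture and at 7.37 and 7.68 in the fetus, lower in the CORIN+ array of both pairs. The remaining ligands Fgf1, Fgf3, Fgf16, Fgf20, Fgf21 and Fgf22 had log2 folds from -0.32 to 0.15 in the cultured pair and from -0.26 to 0.03 in the fetal pair. Over all 16 secreted ligands, 13 had a lower signal in the CORIN+ array in culture and 13 in the fetus, where 49.2% and 59.7% of all clusters did.

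The intracellular FGF homologous factors Fgf11, Fgf12, Fgf13 and Fgf14 are not secreted and bind voltage-gated sodium channels in neurons. In the fetus all 4 were lower in the CORIN+ array, with log2 folds from -0.81 to -0.40, where 59.7% of all clusters were lower. In culture Fgf11, Fgf12 and Fgf14 had a higher signal in cultured CORIN+ cells and Fgf13 alone a lower one, where 50.7% of all clusters were higher. Fgf12 was at 8.70 in cultured CORIN+ and 8.04 in cultured CORIN- cells, and at 7.50 in fetal CORIN+ and 8.30 in fetal CORIN- cells. Its log2 fold was 0.66 in culture (1.58-fold higher) and -0.81 in the fetus (1.75-fold lower), so the CORIN+ array was the upper one in culture and the lower one in the fetus. Fgf14 was at 9.37 and 8.92 in cultured CORIN+ and cultured CORIN- cells, and at 9.47 and 10.08 in fetal CORIN+ and CORIN- cells. Its folds likewise had opposite signs, 0.45 and -0.61. Fgf11 had folds of 0.18 and -0.72, and Fgf13, a microtubule-binding member of this group, of -0.43 and -0.40. The neuronal markers, by contrast, had a median log2 fold of -0.63 in culture and -0.54 in the fetus. Only Fgf13 thus had the sign of these markers in both pairs. Against the fetus, Fgf12 was at 1.20 in CORIN+ cells (2.30-fold higher in culture) and -0.27 in CORIN- cells, while Fgf14 was at -0.10 and -1.15 (2.22-fold lower in CORIN- cells). The neuronal markers had medians of -1.44 and -1.53 in these comparisons, and their part in the folds of these factors was not tested.

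Of the receptors, Fgfr1, Fgfr2, Fgfr3 and Fgfrl1 had signals far above the Olfr clusters in every array, from 9.93 to 12.38, whereas Fgfr4 stayed between 7.55 and 7.68. Fgfr3, a receptor of ventricular zone cells and astrocyte precursors, was at 11.37 in cultured CORIN+ and 10.69 in cultured CORIN- cells, and at 11.19 and 11.10 in fetal CORIN+ and CORIN- cells. The cultured CORIN- array was the low one, and the log2 fold of 0.68 in culture (1.60-fold) was surpassed by 0.963% of all clusters, against a fetal fold of 0.08. Radial glia markers had a higher signal in cultured CORIN+ cells for 8 of 10 genes, where 50.7% of all clusters were higher. Their median log2 fold was 0.32, with a range from -0.16 for Pax6 to 0.999 for the glutamate transporter Slc1a3. In the fetal pair 6 of 10 were higher, where 40.3% of all clusters were, with a median of 0.04 and Slc1a3 at 1.16. The part of radial glia in the fold of Fgfr3 was not tested.
Fgfr2 differed by origin. It was at 12.38 in cultured CORIN+ and 12.20 in cultured CORIN- cells, and at 11.20 in fetal CORIN+ and 10.69 in fetal CORIN- cells. Both cultured arrays lay above both fetal ones, by log2 folds of 1.19 in CORIN+ cells (2.28-fold) and 1.51 in CORIN- cells (2.86-fold). Fgfr1, a receptor found widely in neural progenitors, had log2 folds of -0.17 in the cultured and 0.29 in the fetal pair. Fgfrl1, a receptor without a kinase domain, was at 10.63 and 10.66 in culture and at 10.06 and 9.93 in the fetus. The carrier Fgfbp3, a secreted protein that binds FGFs and releases them from the matrix, was at 9.50 in cultured CORIN+ and 8.86 in cultured CORIN- cells, a log2 fold of 0.64. Fetal CORIN+ cells were at 9.65 and fetal CORIN- cells at 9.67, so that the cultured CORIN- array was again the low one.

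The genes that limit or relay the signal all had the same sign in culture. All 7 inhibitors and all 3 ETS factors had a lower signal in cultured CORIN+ than in cultured CORIN- cells, with a median log2 fold of -0.46, where 49.2% of all clusters were lower and the median over all clusters was 0.00. Only Spry1 passed 2-fold. In the same pair the median log2 fold was -1.60 for the pluripotency markers (9 of 9 lower), -0.88 for the mesenchyme markers (9 of 10), -0.63 for the neuronal markers (10 of 10) and -0.41 for the endothelial markers (9 of 10), and the part of such cells in the folds of the feedback genes was not tested. In the fetal pair the CORIN+ array was higher for 4 genes and lower for 6, where 59.7% of all clusters were lower. The 10 genes had a median of -0.09 and a range from -0.28 to 0.70, and the median over all clusters was -0.04.
Spry1, a Sprouty inhibitor of receptor tyrosine kinase signalling, was at 9.77 in cultured CORIN+ and 10.84 in cultured CORIN- cells, and at 9.71 and 9.99 in fetal CORIN+ and CORIN- cells. Its log2 fold in culture was -1.07 (2.10-fold lower), and only the cultured CORIN- array was raised above the others. Spry1 lies 2 protein-coding genes away from Fgf2 on chromosome 3 of the reference genome, but Fgf2 had a fold of 0.05 in this pair. Spry4, another Sprouty gene, was at 7.61 in cultured CORIN+, 8.39 in cultured CORIN-, 8.42 in fetal CORIN+ and 8.06 in fetal CORIN- cells. Here the cultured CORIN+ array was the low one, with a log2 fold of -0.78 in culture (1.72-fold lower) and 0.36 in the fetus. Spry2 had folds of -0.48 and -0.14.
Il17rd, which restrains FGF receptor signalling at the membrane, was at 9.11 and 9.73 in cultured CORIN+ and cultured CORIN- cells (log2 fold -0.62), and at 9.27 and 9.55 in fetal CORIN+ and CORIN- cells (-0.28). A second cluster of Il17rd had folds of -0.48 and -0.25. The Spred genes, inhibitors of RAS activation, moved less, with log2 folds of -0.40 for Spred2 and -0.15 for Spred1 in culture. In the fetal pair Spred2 was at -0.09 in its brightest cluster and 0.02 in the other, so its fetal sign depended on the cluster.
Etv5 was at 9.10 in cultured CORIN+ and 9.82 in cultured CORIN- cells, and at 8.95 in fetal CORIN+ and 8.34 in fetal CORIN- cells. Its log2 fold was -0.72 in culture (1.65-fold lower) and 0.61 in the fetus (1.53-fold higher), and the second Etv5 cluster gave -0.51 and 0.53. Where a gene had a second cluster, the genome positions were not checked, and its clusters are not taken as independent measurements of the gene. Etv4 had folds of -0.44 and -0.18. Etv1 had folds of -0.31 and -0.09 in its brightest cluster and -0.34 and 0.09 in the other, so that its fetal sign depended on the cluster.
Dusp6, the phosphatase that inactivates ERK, had the smallest fold of the 10 genes in culture and the largest in the fetus. It was at 11.46 in cultured CORIN+ and 11.57 in cultured CORIN- cells, a log2 fold of -0.10, and at 10.33 in fetal CORIN+ and 9.63 in fetal CORIN- cells. The fetal log2 fold was 0.70 (1.63-fold higher), which 4.17% of all clusters surpassed. Macrophage and mesenchyme markers were higher in the same fetal CORIN+ array (median log2 folds of 3.89 and 2.28), and their part in the fetal folds of Dusp6, Etv5 and Spry4 was not tested.

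**Figure D4:**
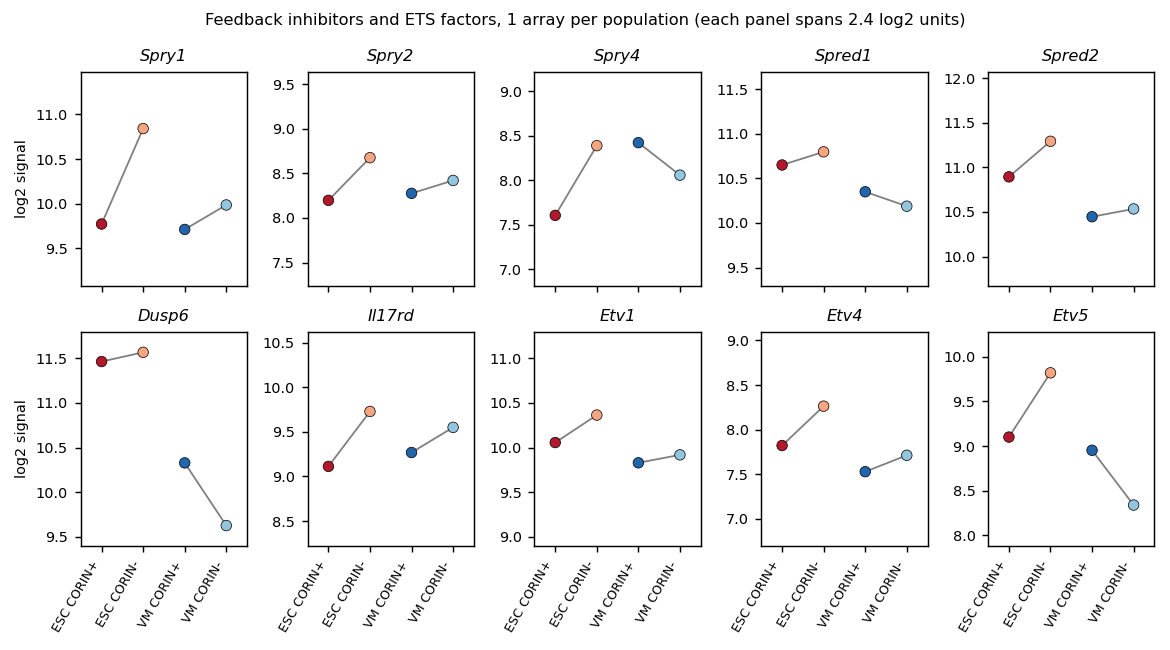
Log2 signal of the 7 feedback inhibitors and 3 ETS factors in each population, 1 array each, in the order cultured CORIN+, cultured CORIN-, fetal CORIN+ and fetal CORIN- cells; lines join the arrays compared and every panel spans the same number of log2 units. The left line, of the cultured pair, has its CORIN+ end below its CORIN- end in all 10 panels, while the right line, of the fetal pair, has its CORIN+ end above for Spry4, Spred1, Dusp6 and Etv5.

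Set against the fetus, the same genes mostly had a higher signal in culture. In CORIN- cells all 10 had a higher signal in culture (median log2 fold 0.58, with 46.3% of all clusters higher), and in CORIN+ cells 7 of 10 did (median 0.19, with 53% of all clusters higher). The first of these comparisons uses the same cultured CORIN- array as the cultured pair. In it 8 of 9 pluripotency markers were higher in culture, 5 of them at least 2-fold (median log2 fold 1.81), where 3.94% of all clusters were. In CORIN+ cells none passed 2-fold (median 0.11), where 2.7% of all clusters were higher and 3.86% lower. The part of pluripotent cells in the folds of the feedback genes was not tested. Dusp6 had log2 folds of 1.14 in CORIN+ cells (2.20-fold) and 1.94 in CORIN- cells (3.84-fold), and both cultured arrays lay above both fetal ones. Etv5 was at 0.15 in CORIN+ cells and 1.48 in CORIN- cells (2.79-fold). The 3 genes with a lower signal in cultured than in fetal CORIN+ cells were Spry4 (-0.81), Il17rd (-0.16) and Spry2 (-0.08). In CORIN- cells these were at 0.33, 0.18 and 0.26, and the second Il17rd cluster was at -0.21. Over all 36 genes, 3 (8.33%) had at least 2-fold more and 2 (5.56%) at least 2-fold less signal in cultured CORIN+ cells than in fetal ones, against 2.7% and 3.86% of all clusters. The higher ones were Fgf12, Fgfr2 and Dusp6 and the lower ones Fgf15 and Fgf18. In CORIN- cells 3 were higher (Fgfr2, Dusp6 and Etv5) and 2 lower (Fgf14 and Fgf15), against 3.94% and 3.53%. At 1.5-fold, 5 genes were higher and 4 lower in CORIN+ cells (6.9% and 7.03% of all clusters), and 9 were higher and 4 lower in CORIN- cells (8.99% and 6.8%).

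As all 10 genes had the same sign in the cultured pair, their promoters were searched for 2 kinds of letters linked to ERK signalling. The first was GGAAG, 1 form of the core that ETS factors bind, and other forms of that core were not searched. The second was the octamer of Capicua, a repressor that ERK signalling relieves (TGAATGAA, TGAATGGA, TCAATGAA or TCAATGGA). Promoters ran from 250 bases before to 50 bases after a gene start (RefSeq, GRCm38.p6), both strands were read, and 8 of the 10 genes were matched. Over all 32851 promoters of this length, 71.4% held GGAAG and 3.84% held an octamer. Of the 8 genes, all but Spry1 held GGAAG in at least 1 window, while a further window of Etv1 and of Etv5 held 0. The 71.4% counts single windows and not genes, so it is not on the same unit as this count, and nothing is read from it. An octamer was found in Spry2 (1 match) and Dusp6 (2 matches) and in none of the other 6 genes. These 4 promoters are shown because Spry1 had the largest fold of the group in culture, Dusp6 the smallest, Etv5 opposite signs, and Spry2 and Dusp6 hold the octamers. Capitals mark a match to either motif on either strand.
Spry1, chr3:37639697-37639996, + strand: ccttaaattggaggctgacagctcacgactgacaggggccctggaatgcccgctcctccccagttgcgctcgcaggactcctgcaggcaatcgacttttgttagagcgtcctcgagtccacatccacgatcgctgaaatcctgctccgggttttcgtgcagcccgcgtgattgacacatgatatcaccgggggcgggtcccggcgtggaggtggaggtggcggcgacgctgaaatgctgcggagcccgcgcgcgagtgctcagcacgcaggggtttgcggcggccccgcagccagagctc
Spry2, chr14:105896770-105897069, - strand: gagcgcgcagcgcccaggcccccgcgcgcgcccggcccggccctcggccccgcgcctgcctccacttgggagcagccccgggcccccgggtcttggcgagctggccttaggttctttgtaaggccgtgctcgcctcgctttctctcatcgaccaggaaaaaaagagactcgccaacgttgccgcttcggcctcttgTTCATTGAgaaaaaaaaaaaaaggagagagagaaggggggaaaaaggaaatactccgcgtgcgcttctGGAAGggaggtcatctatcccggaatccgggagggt
Dusp6, chr10:99262981-99263280, + strand: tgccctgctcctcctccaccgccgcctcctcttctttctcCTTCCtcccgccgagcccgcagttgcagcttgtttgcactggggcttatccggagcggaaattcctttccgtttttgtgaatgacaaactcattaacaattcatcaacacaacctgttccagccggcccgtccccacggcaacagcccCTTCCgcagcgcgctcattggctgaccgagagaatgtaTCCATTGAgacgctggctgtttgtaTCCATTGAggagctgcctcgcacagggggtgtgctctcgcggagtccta
Etv5, chr16:22438319-22438618, - strand: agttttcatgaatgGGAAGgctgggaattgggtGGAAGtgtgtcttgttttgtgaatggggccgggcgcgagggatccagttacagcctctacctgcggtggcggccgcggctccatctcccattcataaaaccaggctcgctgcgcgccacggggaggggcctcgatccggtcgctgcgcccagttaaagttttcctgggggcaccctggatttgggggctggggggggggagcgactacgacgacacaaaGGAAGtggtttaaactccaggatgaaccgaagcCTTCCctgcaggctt
The printed Spry1 window held 0 matches to either motif, and the Etv5 window held 4 GGAAG cores. Another start of Etv5 held 0. The gene with the largest fold in culture and the gene with 2 octamers thus did not coincide, and a match in these letters is no evidence that a factor was bound.

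Genes of the rest of the pathway passed 2-fold in the fetal pair but not in the cultured pair. Of 36 further pathway genes with a cluster of their own, none was at least 2-fold higher or lower in the cultured pair, against 0.353% and 0.468% of all clusters. In the fetal pair 4 were higher and 1 lower, against 2.67% and 0.672%. The higher ones were Flrt2, a membrane protein related to the FGFR-binding Flrt3 (log2 fold 1.61), Sdc2, a heparan sulfate proteoglycan (1.47), Shc1, an adaptor from receptor tyrosine kinases to RAS (1.15), and Sulf1, which removes sulfates from heparan sulfate (1.02). The lower one was Dusp4, a phosphatase of nuclear ERK (-1.31). In the cultured pair Flrt2, Sdc2, Shc1, Sulf1 and Dusp4 had log2 folds of -0.29, 0.50, 0.04, 0.32 and -0.25. The fetal folds again stand beside the higher macrophage and mesenchyme markers of fetal CORIN+ cells, whose part was not tested. Against the fetus, none of the 36 passed 2-fold in CORIN+ cells, where 2.7% of all clusters were higher and 3.86% lower. In CORIN- cells 5 were higher in culture and 0 lower, against 3.94% and 3.53% of all clusters. The 5 were Shc1 (1.57), Sulf1 (1.44), Flrt2 (1.36), Sdc2 (1.26) and Map2k1, a kinase that activates ERK (1.13). The 13 measured adaptors and kinases between receptor and ERK had log2 folds from -0.25 to 0.12 in culture, with a median of 0.02. In fetal CORIN+ cells 7 of the 13 had a lower signal (median -0.03), near the array as a whole. There 59.7% of all clusters were lower, with a median of -0.04. The further MAPK inhibitors and targets, by contrast, had a lower signal in cultured CORIN+ cells for 6 of 7 genes, where 49.2% of all clusters did. Their median was -0.31, and Spred3 was the lowest at -0.51. In the fetal pair 5 of these 7 genes were lower, where 59.7% of all clusters were. They had a median of -0.20 and a range from -1.31 for Dusp4 to 0.998 for Egr1, an immediate-early gene that ERK induces.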

How the data were processed

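Total RNA of 4 sorted mouse populations was hybridized to Affymetrix whole-transcript arrays, 1 array per population. The authors deposited 1 log2 signal per transcript cluster and array, and their methods name GeneSpring. How probes were summarized, how arrays were normalized and which genome build was used is not given in the sources used here. The platform annotation paired 21789 of 28856 clusters with 1 gene symbol, 1621 with several and 5446 with none, and only the first were named. Symbols were updated through RefSeq (GRCm38.p6).

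A gene was read from its cluster with the highest mean over the 4 arrays. Log2 folds were differences of log2 signals, and calls used 2-fold, with 1.5-fold beside it. With 1 array per population nothing was tested, and the number of arrays limits the precision. All 36 genes were named. A gene of another list was named when it passed 2-fold and was among the 3 largest folds of its list in that comparison, or where its level bore on one of the 36 genes. The genes and lists were chosen with earlier results of these data known. Of the 43 further pathway genes listed, 7 had no cluster paired with them alone and were not analysed here. Alternatives were quantile normalization, centring on the median, 32 added to the linear signal, the mean over clusters of a gene, dim clusters left out, and other folds and Olfr percentiles. Scripts ran in Python 3.11.15 with numpy 2.4.6, pandas 2.3.3 and matplotlib 3.10.9 and were tested on simulated data.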

Additional observations from a re-analysis of the deposited data

Results flagged for a closer look

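Fgf12 and Etv5 had folds of opposite sign in the 2 CORIN+ against CORIN- comparisons, each past 1.5-fold. For Fgf12 the log2 fold was 0.66 between the cultured populations and -0.81 between the fetal ones, a difference of 1.47. For the brightest Etv5 cluster it was -0.72 between the cultured populations and 0.61 between the fetal ones, a difference of -1.33. Which of the Etv5 clusters lies at the Etv5 gene itself was not checked. The second Etv5 cluster gave -0.51 and 0.53, of opposite sign too but under 1.5-fold in both pairs. With 1 array per population the difference between the pairs was not tested.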

How the results depend on the processing

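No paired analysis was possible because each population had 1 array, and for the same reason no array could be left out. Quantile normalization, centring, 32 added to the linear signal and the mean over clusters moved each of the 144 log2 folds of the 36 genes by less than the scaled median absolute deviation of its comparison. Signs changed for 2, 3, 0 and 2 of these folds in that order of settings, all with log2 sizes up to 0.18. The medians of the isthmic ligands, the receptors and the feedback and ETS genes kept their sign and moved by less than that deviation under these settings and with dim clusters left out. With 32 added to the linear signal, 1 gene in place of 2 was at least 2-fold lower in the cultured CORIN+ population, since Fgf4 came to -0.96. At 1.5-fold, 3 genes were higher and 6 lower in the cultured pair, 2 higher and 4 lower in the fetal pair, 5 higher and 4 lower in cultured against fetal CORIN+ cells, and 9 higher and 4 lower in CORIN- cells. At 3-fold, 0 were lower in the cultured pair, 0 were higher and 1 was lower in cultured against fetal CORIN+ cells, and 1 was higher and 1 lower in CORIN- cells. The share of all clusters past 3-fold was not computed, so nothing is read from these 3-fold counts about the FGF genes. Of the 2 genes past 1.5-fold in opposite directions, 1 was left after quantile normalization (Fgf12) and 0 at 2-fold. Etv5 also came to a fetal log2 fold of 0.57 with 32 added and with the mean over its clusters, under 1.5-fold. With the 99th percentile of Olfr clusters in place of the 95th, 21 genes in place of 32 lay above the line in all 4 arrays, so signal over background limits the values of many secreted ligands.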
